A study of Homo sapiens with 34 samples.

Results

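The broad OGG1 domains of non-treated cells are the stretches of the genome over which OGG1 was called without a break for 30 kb or more in cells with control siRNA and no peroxide. They were taken from the region list of the replicate 1 library: a region of at least 30 kb counted as a domain when it overlapped, by 1 bp or more, a region of at least 30 kb in the replicate 2 list. The rule found 504 domains among the 17813 regions of the replicate 1 list, or 2.83% of them, and all 20 lists of the series held 978086 regions. The widths in these 2 lists chose the domains, so they are given as a description and no test was made on them.

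Occupancy was profiled by CUT&RUN, in which an antibody directs a nuclease to its target and the DNA cut loose is sequenced, in U2OS, a human osteosarcoma line. The lists fall into 10 groups of n = 2. OGG1 and SMARCA1 were each profiled in siOrc6 cells given H2O2, siOrc6 cells not treated (NT), siGl3 cells given H2O2 and siGl3 cells not treated, and Orc6 was profiled in siGl3 cells given H2O2 and siGl3 cells not treated. siOrc6 is an siRNA against Orc6 and siGl3 the control siRNA, and knockdown ran for 72 h. Every group was synchronised with thymidine, released for 3 h and thus collected in S phase, and H2O2 was 5 mM for 30 min. The lists held between 6992 and 132408 regions and between 31.8 and 825.4 Mb, with no read counts, so the depth behind them is unknown. The other 14 of the 34 samples were not analysed here. The deposited lists of all 4 SMARCA1 siOrc6 libraries, and of no SMARCA1 siGl3 library, are marked by name as resubmitted. In the SMARCA1 comparison of siRNAs, the siRNA and this mark cannot be told apart.

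OGG1 is the DNA glycosylase that finds 8-oxoguanine, the common oxidised form of guanine, and cuts it out as the opening step of base excision repair. It also binds chromatin at promoters rich in guanine, where its presence has been tied to transcription under oxidative stress. SMARCA1 is an ATPase of ISWI chromatin remodelling complexes, which slide nucleosomes, and Orc6 belongs to the origin recognition complex, which marks sites where DNA replication can begin.

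The promoters of 5 genes inside the domains are shown because the results below turn on the domains that hold them. MICALL2 lies in the widest domain, PMEPA1 in the domain most covered over all other lists, LAMA5 in the domain with the largest SMARCA1 difference between siRNAs, NTHL1 encodes a base excision repair glycosylase, and ACTG1 encodes gamma-actin. Each run is 300 bases of RefSeq sequence (GRCh38.p14, minus strand, from 250 bases before the start of the gene to 50 after it), 5′ to 3′, with the GC box GGGCGG or its reverse complement CCGCCC in capitals. They lie at chr7:1459421-1459720 (MICALL2), chr20:57711423-57711722 (PMEPA1), chr20:62367263-62367562 (LAMA5), chr16:2047785-2048084 (NTHL1) and chr17:81512750-81513049 (ACTG1).
MICALL2: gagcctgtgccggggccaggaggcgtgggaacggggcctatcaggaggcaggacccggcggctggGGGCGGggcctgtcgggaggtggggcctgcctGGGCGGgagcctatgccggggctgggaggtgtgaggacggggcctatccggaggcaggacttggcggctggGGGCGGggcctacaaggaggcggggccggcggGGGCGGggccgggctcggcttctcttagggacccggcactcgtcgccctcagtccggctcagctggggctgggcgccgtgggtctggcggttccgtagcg
PMEPA1: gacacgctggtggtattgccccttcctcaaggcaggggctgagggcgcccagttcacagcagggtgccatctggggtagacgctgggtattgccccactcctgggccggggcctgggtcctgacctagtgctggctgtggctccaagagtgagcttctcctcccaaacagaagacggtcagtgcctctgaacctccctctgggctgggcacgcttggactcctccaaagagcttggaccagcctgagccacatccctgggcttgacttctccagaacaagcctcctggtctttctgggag
LAMA5: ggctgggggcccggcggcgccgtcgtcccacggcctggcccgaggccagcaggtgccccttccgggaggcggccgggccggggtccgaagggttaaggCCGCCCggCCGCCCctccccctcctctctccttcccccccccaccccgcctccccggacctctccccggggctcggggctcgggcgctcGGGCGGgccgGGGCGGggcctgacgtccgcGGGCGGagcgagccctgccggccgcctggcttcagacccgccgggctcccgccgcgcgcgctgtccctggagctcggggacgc
NTHL1: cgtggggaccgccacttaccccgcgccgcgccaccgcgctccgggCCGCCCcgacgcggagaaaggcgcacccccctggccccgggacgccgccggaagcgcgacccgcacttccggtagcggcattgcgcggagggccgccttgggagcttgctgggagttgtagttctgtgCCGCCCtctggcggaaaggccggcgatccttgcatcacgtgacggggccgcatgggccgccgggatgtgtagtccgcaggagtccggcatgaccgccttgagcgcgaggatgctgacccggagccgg
ACTG1: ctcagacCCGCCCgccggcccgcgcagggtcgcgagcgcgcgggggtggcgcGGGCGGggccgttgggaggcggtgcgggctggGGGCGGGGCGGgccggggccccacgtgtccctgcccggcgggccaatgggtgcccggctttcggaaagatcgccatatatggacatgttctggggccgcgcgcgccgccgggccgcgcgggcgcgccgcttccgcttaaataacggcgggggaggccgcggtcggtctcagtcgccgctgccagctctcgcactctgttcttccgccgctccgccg
LAMA5 has 5 GC boxes and is 82.7% G and C, ACTG1 and MICALL2 have 4 each, at 77.3% and 76.3%, and NTHL1 has 2 at 73.3%. PMEPA1 has none, at 62%, and holds 6 CpG dinucleotides against 50 in ACTG1. Of the promoter entries of protein-coding genes, 687 of 22132 lay wholly inside a domain. Their median GC content was 68%, against 62.3% over all 22132, and their median CpG count was 27 against 21. GGGCGG on either strand was present in 73.7% of the promoters inside domains and in 56.3% of all. The run GGGG was present in 99.7% and 93.5%, the E-box CACGTG in 10.6% and 8.34%, and the AP-1 motif TGACTCA in 5.09% and 4.01%. GGGG and GGGCGG can share bases. A match describes the letters of these windows and is no evidence of binding.

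The domains covered 25.5 Mb, 0.841% of the 3.03 Gb spanned by the lists, but 15.4% of all bases called in the replicate 1 library. Their median width was 42.7 kb, with quartiles at 35.1 and 54.7 kb. There were 169 domains of 50 kb or more and 22 of 100 kb or more. The widest ran for 278.1 kb over INTS1, MICALL2, TMEM184A, MAFK and PSMG3 at chr7:1337439-1615587. The next were 263.9 kb over RNF216, FBXL18, FSCN1 and ACTB at chr7:5436528-5700471, and 232.5 kb over TNRC18, WIPI2 and SLC29A4 at chr7:5202064-5434540. ACTB encodes beta-actin and FSCN1 the actin-bundling protein fascin. The other 7 of the 10 widest lay on chromosome 7 (FOXK1, RADIL and AP5Z1, 147.6 kb), on chromosome 17 (BAIAP2, AATK and PVALEF, 153.1 kb) and near the end of chromosome 8. There 5 domains of 145.1 to 181.2 kb each, in 2 separate blocks, held PLEC, TOP1MT, HSF1, DGAT1, RECQL4 and TONSL among others. HSF1 is the master regulator of the heat shock response, and RECQL4 and TONSL act in DNA replication and repair.

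Just inside the width threshold were the domains at NDST1 (30003 bp in replicate 1), PTPRF (30030 bp), MMD2 (30106 bp), MN1 (30153 bp) and TNK2 (30230 bp). Just outside it were regions at GRM4, whose widest replicate 2 region was 29945 bp, and at MAD1L1 (29874 bp), RBPMS2 (29822 bp) and TANC2 and CYB561 (29822 bp). In all, 84 regions of at least 30 kb in replicate 1, that at GRM4 among them, had no partner of that width in replicate 2. Replicate 2 held 1244 regions of 30 kb or more against 588 in replicate 1.

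The domains were concentrated on a few chromosomes. Chromosome 17 held 75 of them, 14.9% against 7.39% of all regions in the same list, and chromosome 22 held 60, 11.9% against 4.58%. Chromosome 7 held 45 (8.93% against 4.45%), chromosome 8 held 42 (8.33% against 4.67%), chromosome 16 held 37 (7.34% against 4.76%) and chromosome 20 held 29 (5.75% against 4.02%). Together they occupied 5.88% of the length of chromosome 22 and 4.54% of chromosome 17. Chromosome 1, which held 10.4% of the regions, had 30 domains (5.95%), and the gene-dense chromosome 19, with 4.81% of the regions and 7.26% of protein-coding genes, had 13 (2.58%). Chromosomes 6, 21 and X had 2 each, chromosome 13 had 1, and chromosomes 4 and 18 had none. Since all these are shares of the list that chose the domains, they carry no test.

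**Figure D1:**
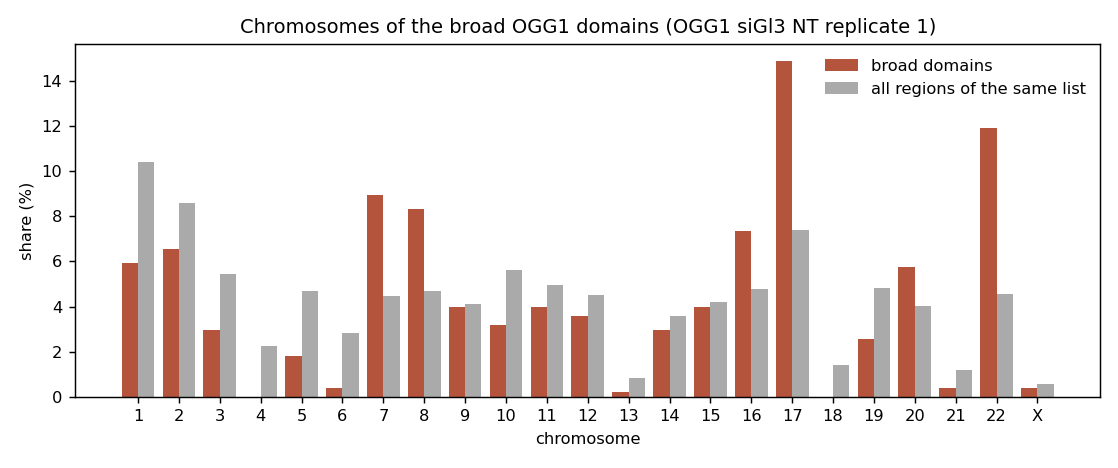
Share of the 504 broad OGG1 domains on each chromosome (red bars, % of domains) beside the share of all 17813 regions of the OGG1 siGl3 NT replicate 1 list (grey bars, % of regions). Chromosomes 17 and 22 hold 14.9% and 11.9% of the domains against 7.39% and 4.58% of the regions, and chromosomes 4 and 18 hold none.

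They also lay close to each other, and a larger share of them than of all regions lay near a chromosome end. Joined over gaps of up to 100 kb, the domains formed 307 blocks, and 284 domains (56.3%) shared a block with another. The largest block held 17 domains over chr17:80955945-82409454, from RPTOR past BAIAP2, ACTG1, P4HB, MAFG and SIRT7 to FASN and CSNK1D. A block of 12 domains at chr7:5140196-6653052 ran from TNRC18 past ACTB, PMS2 and RAC1 to ZNF853, and a block of 10 at chr22:19686616-20326788 held SEPTIN5, TBX1, TXNRD2, DGCR8 and RANBP1. Within 5 Mb of a chromosome end lay 164 domains (32.5%), against 14.4% of all regions of the list and 7.59% of the span. The median distance of a domain to a chromosome end was 14.1 Mb.

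Gene starts and ends were dense inside the domains. They held 55.8 ends of protein-coding genes per Mb against 13.2 per Mb over the whole span, a 4.23-fold difference, and 928 of 19974 protein-coding genes (4.65%) overlapped a domain, 487 of them wholly inside. A domain held a median of 1 protein-coding gene, 215 held exactly 1 and 44 held 5 or more. The most was 18, in the chromosome 8 domain at chr8:144380359-144561593 that spans ARHGAP39, CPSF1, TONSL, RECQL4, SLC39A4 and GPT. Without any protein-coding gene were 54 domains (10.7%), against 49% of the 30 kb windows that fill the rest of the genome. The domains are wider than these windows, with a median of 42.7 kb, and a wider feature has more chances to meet a gene. Gene content was not compared with that of the other OGG1 regions of the list.

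Among 15 gene lists, those of the actin cytoskeleton and cell adhesion (8 of 26) and of HOX genes (12 of 39) shared the highest share in domains, 30.8% against the 4.65% of all protein-coding genes. The 8 genes of the actin and adhesion list were PLEC, PXN, ACTN1, LMNA, ACTN4, FLNA, ACTB and ACTG1. They encode plectin, paxillin, alpha-actinins, filamin A and the cytoplasmic actins, and also lamin A/C, which the list counts with them. The 12 HOX genes lay in only 2 domains, at chr7:27140385-27192688 (HOXA3 to HOXA11) and chr17:48583273-48621136 (HOXB3 to HOXB8). Of 22 AP-1 and immediate early genes, 5 overlapped a domain (22.7%): MAFG and MAFK, which encode small MAF proteins that pair with NRF2, FOSL1, a partner of JUN, MYC, and ZFP36, which encodes a protein that destabilises mRNAs. Of 14 neuron genes, 3 did (RBFOX3, GRIN1 and SLC17A7), and of 15 T and B cell genes CD4 did, genes that mark cell types other than the cultured line. Of 27 NRF2 targets, HMOX1, OSGIN1 and GPX2 lay in domains, and among the base excision repair genes NTHL1 did. SMAD6 among the TGF-beta feedback genes, COL1A1 of 27 mesenchymal genes, CHRAC1 of 14 ISWI genes, MCM5 of 21 origin and MCM genes and PHLDA3 of 22 p53 targets also overlapped a domain. None of 16 YAP targets, 53 histone genes of chromosome 6 or 16 hepatocyte genes overlapped a domain. Longer genes have more chances to overlap, and the gene lists were chosen with earlier results of these data known. These shares carry no test.

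The state of each domain elsewhere was measured as the percent of its bases inside called regions, its coverage. In the other OGG1 lists most domains were covered almost end to end. Mean coverage over the 504 domains was 87.0% and 97.6% in the 2 siOrc6 H2O2 lists, 94.0% and 53.5% in siOrc6 NT, and 94.5% and 98.8% in siGl3 H2O2, beside 100% and 95.7% in the siGl3 NT lists that chose them. The windows that touch no domain averaged 23.9% and 17.4% in siOrc6 H2O2, 6.03% and 8.97% in siOrc6 NT, 26.4% and 24.7% in siGl3 H2O2, and 4.52% and 7.07% in siGl3 NT. The siOrc6 NT replicate 2 list stood apart: 40 domains had no OGG1 call there, while in the other OGG1 lists at most 1 had none. That domain, at RBM38 (chr20:57385785-57417849), was at 0 in siGl3 H2O2 replicate 1.

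**Figure D2:**
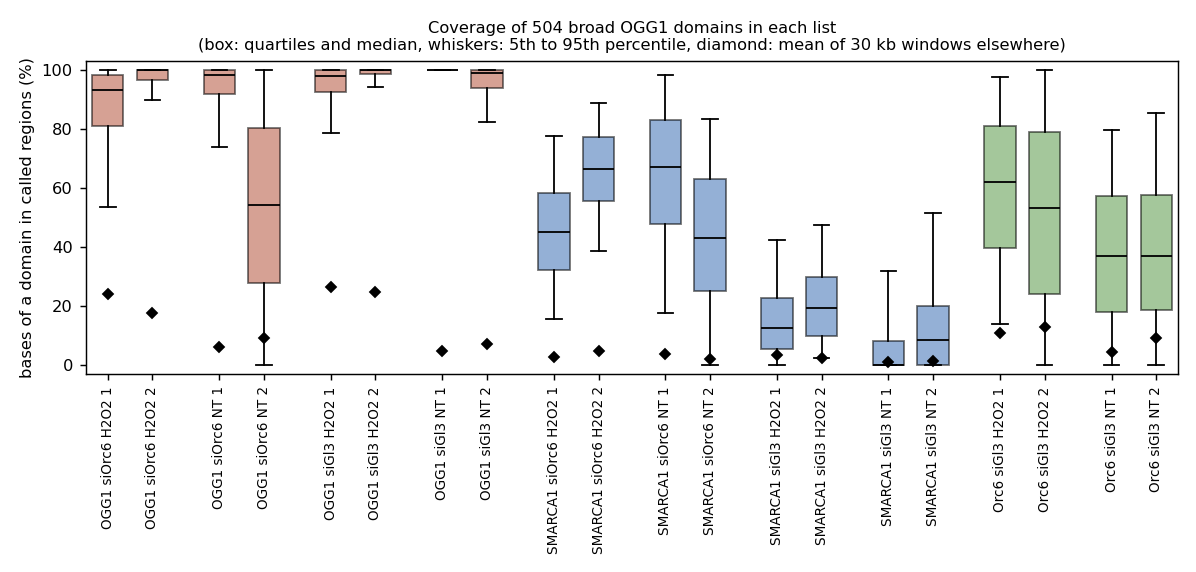
Coverage of the 504 domains (% of a domain's bases inside called regions) in each of the 20 lists, with boxes for quartiles and median, whiskers from the 5th to the 95th percentile and diamonds for the mean of the 30 kb windows elsewhere. OGG1 lists (red) average 87.0% or more except siOrc6 NT replicate 2 at 53.5%, SMARCA1 lists (blue) average 43.5% to 65.5% with siOrc6 and 6.29% to 20.8% with siGl3, and Orc6 lists (green) average 38.3% to 59.3%.

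Breadth itself was kept less evenly than coverage. A region of at least 30 kb overlapped 284 and 471 of the domains in the OGG1 siOrc6 H2O2 lists, 437 and 129 in siOrc6 NT, and 381 and 486 in siGl3 H2O2. It did so in all 8 OGG1 lists for 114 domains (22.6%). In Orc6 lists it did so for 120 and 162 domains with H2O2 and for 33 and 25 without. In SMARCA1 lists the numbers were 5 and 14 for siOrc6 H2O2, 157 and 48 for siOrc6 NT, 0 and 0 for siGl3 H2O2, and 1 and 3 for siGl3 NT. These counts are to be read beside all regions of at least 30 kb in a list. OGG1 lists held 2042 and 2417 in siOrc6 H2O2, 1085 and 724 in siOrc6 NT, and 2863 and 3412 in siGl3 H2O2. Orc6 lists held 534 and 1634 with H2O2 and 84 and 159 without. SMARCA1 lists held 5 and 19 in siOrc6 H2O2 and 282 and 80 in siOrc6 NT. With siGl3 they held 0 and 0 with H2O2 and 10 and 9 without. SMARCA1 regions were more numerous per domain with H2O2, with means of 6.38 and 7.64 in siOrc6 H2O2 lists against 2.03 and 1.98 in siOrc6 NT lists, and of 5.16 and 5.78 in siGl3 H2O2 lists against 0.617 and 1.54 in siGl3 NT lists. The whole SMARCA1 lists were longer with H2O2 too. They held 35381 and 65093 regions in siOrc6 H2O2 against 14791 and 11012 in siOrc6 NT. In siGl3 cells they held 69927 and 47072 with H2O2 against 6992 and 11036 without. Regions per domain overlapped between groups for OGG1 in siOrc6 cells, at 3.61 and 1.58 with H2O2 against 1.44 and 2.38 without, and for Orc6, at 3.09 and 2.06 with H2O2 against 2.43 and 3.64 without.

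**Figure D3:**
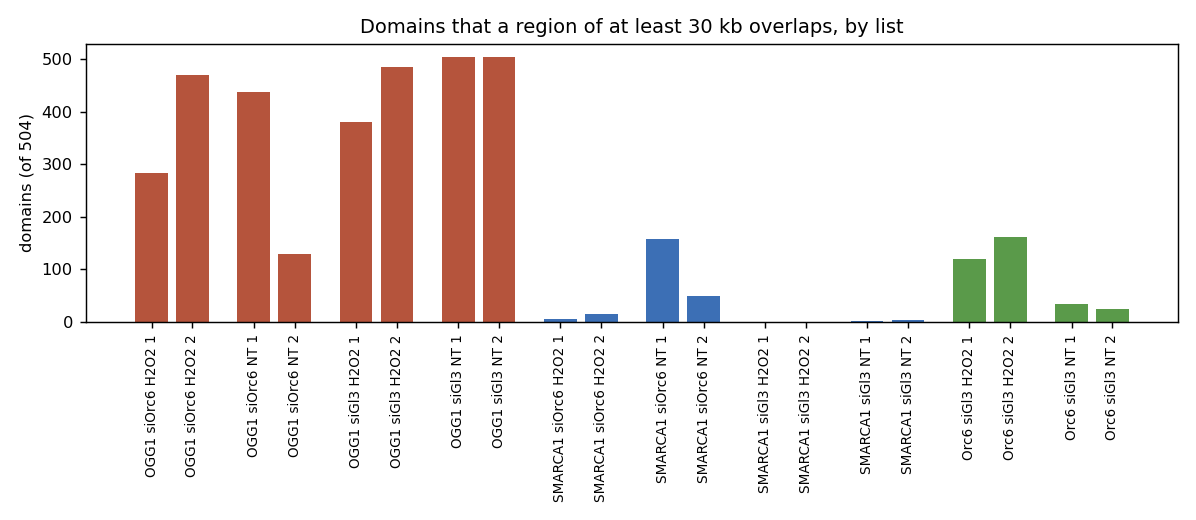
Number of the 504 domains that a region of at least 30 kb overlaps in each list (bars, red OGG1, blue SMARCA1, green Orc6). The OGG1 siGl3 NT lists hold all 504 by the rule, OGG1 siOrc6 NT replicate 2 holds 129, and the SMARCA1 lists hold at most 157.

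No domain's OGG1 coverage passed the test between H2O2 and NT in siOrc6 cells. Coverage cannot exceed 100%, and the domains were chosen for wide OGG1 calls. Their mean coverage was 94.0% in siOrc6 NT replicate 1 and 87.0% to 98.8% in the H2O2 lists. A rise of the domains was thus limited in both OGG1 comparisons. The windows elsewhere, at means of 6.03% to 26.4% in the lists tested, were not limited in this way. Coverage was higher with H2O2 in 489 of 504 domains, with a median difference of 17.2 points. Over the 53380 domains and windows that passed the filter on low coverage the median was 21.2 points, and with no filter it was 16.4. Among lists cut to the same covered bases the medians were 6.88 points over domains and 4.04 over all features. Among lists cut to the same number of regions they were 12.1 and 15.2. Which of the 2 medians was higher thus changed with the setting. limma called 0 domains higher or lower at an adjusted p of 0.05 (lowest 0.109), with 0% called among all features, and 20 higher at an unadjusted p under 0.05. The count depended on which siOrc6 NT list was used. Without siOrc6 NT replicate 2, 18 domains (3.57%) were called higher, against 10.1% of all features, and the median difference was -1.15 points. Without siOrc6 NT replicate 1, 273 (54.2%) were called higher, against 8.55% of all features. Either leaves 1 NT list, which is then assumed to vary like the other groups. Between siOrc6 and siGl3 cells given H2O2 the median difference was -2.21 points, against -7.50 over all features, and limma called 0 domains (0% of all features, and 0 domains at an unadjusted p under 0.05). OGG1 in siGl3 cells given H2O2 against NT, and in NT cells with siOrc6 against siGl3, would use the lists that chose the domains and was not tested.

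Orc6 covered the domains in part. Mean coverage was 59.3% and 51.9% in siGl3 H2O2 lists, against 38.3% and 39.5% in siGl3 NT lists, and the windows elsewhere averaged 10.6% and 12.7% with H2O2 and 4.34% and 9.21% without. At least 50% of a domain was covered in all 4 Orc6 lists for 125 domains (24.8%), and 1 domain had no Orc6 call in any of them. The median difference, H2O2 minus NT, was 16.2 points over the 482 domains that passed the filter on low coverage, with 442 positive, and 11.7 points over all features. limma called 0 domains in either direction (lowest adjusted p = 0.396, 0% of all features called), with 41 higher and 1 lower at an unadjusted p under 0.05.

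SMARCA1 covered far more of the domains in siOrc6 than in siGl3 cells. Mean coverage was 45.1% and 65.5% in siOrc6 H2O2 and 63.1% and 43.5% in siOrc6 NT lists, against 15.7% and 20.8% in siGl3 H2O2 and 6.29% and 13.9% in siGl3 NT lists. The means of the 4 siOrc6 lists all lay above those of the 4 siGl3 lists. limma called 354 of 504 domains (70.2%) higher and 0 lower, where 17.2% of all 24913 features were called higher and 5.36% lower. The difference was positive in 501 domains with a median of 40.3 points (quartiles 28.9 and 50.8), against 3.55 over all features. In 360 domains (71.4%) each of the 4 siOrc6 lists exceeded each of the 4 siGl3 lists, against 15.8% of all features. The domains took up 10.8% to 16.3% of the SMARCA1 bases of siOrc6 lists and 4.11% to 7.97% of those of siGl3 lists. The median difference was 36.5 points among H2O2 lists and 44.1 points among NT lists. With the batch number as a term, 160 domains were called higher (31.7%), against 2.47% of all features. Among lists cut to the same covered bases 436 domains passed the filter, of which 211 (48.4%) were called higher and 8 (1.83%) lower, against 9.82% and 23.5% of all features, whose median difference was -3.27 points. Without any of the 4 siGl3 lists in turn, limma called no domain, and no other feature, although 360 to 406 domains had an unadjusted p under 0.05. Among SMARCA1 lists cut to the same number of regions, mean domain coverage was 24.5% and 37.1% in siOrc6 H2O2 and 56.1% and 39.0% in siOrc6 NT, against 5.54% and 9.12% in siGl3 H2O2 and 6.29% and 11.7% in siGl3 NT.

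**Figure D4:**
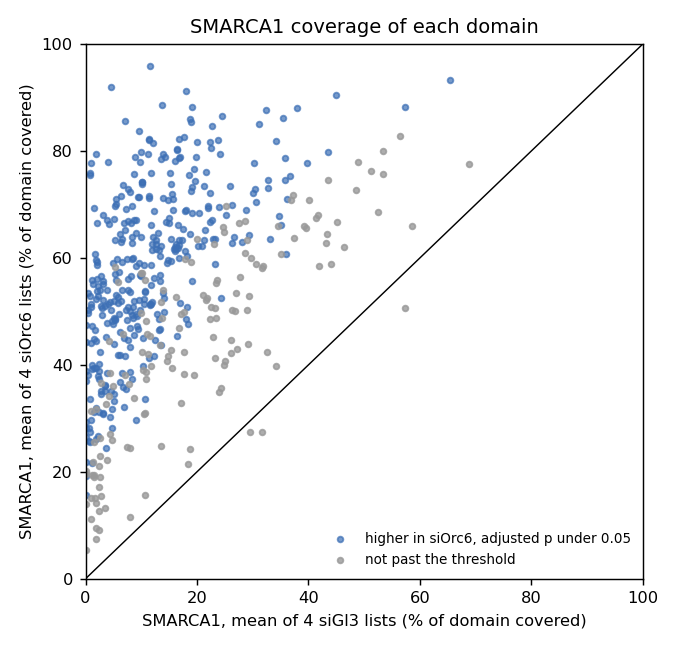
SMARCA1 coverage of each domain, mean of the 4 siOrc6 lists (vertical axis, %) against the mean of the 4 siGl3 lists (horizontal axis, %), with the line of equal coverage. Of the 504 points, 501 lie above the line, and the 354 in blue pass an adjusted p of 0.05.

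The largest difference was at LAMA5, which encodes a laminin chain of basement membranes, in a 32.3 kb domain at chr20:62349721-62382019 whose promoter is shown above. SMARCA1 covered 94.7% and 86.1% of it in siOrc6 H2O2 and 99.8% and 87.1% in siOrc6 NT, against 6.08% and 12.1% in siGl3 H2O2 and 0% and 0% in siGl3 NT. All 4 siOrc6 lists were far above all 4 siGl3 lists, a difference of 87.4 ± 5.88 points (SE, limma adjusted p = 0.0146). The domain over ZDHHC8, RANBP1 and CCDC188 (chr22:20123430-20162347) differed by 84.4 ± 5.29 points. It was covered at 90.9% and 93.8% in siOrc6 H2O2 and 98.7% and 100% in siOrc6 NT, against 19.6% and 26.4% in siGl3 H2O2 and 0% and 0% in siGl3 NT. RANBP1 encodes a partner of the nuclear transport GTPase Ran. The domains over CRELD2, ALG12 and PIM3 on chromosome 22, over CACNA1H, a T-type calcium channel gene, and TPSG1 on chromosome 16, and at TSNARE1 on chromosome 8 differed by 78.6 ± 5.11, 77.7 ± 7.67 and 76.8 ± 5.81 points (limma adjusted p = 0.0146 each). These 5 were also called with the batch number as a term (adjusted p = 0.0473 each). The TSNARE1 difference was 46.2 points among lists cut to the same number of regions and 32.8 points among lists cut to the same covered bases, where its call was lost (limma adjusted p = 0.266).

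The domain at the base excision repair gene NTHL1 rose in siOrc6 cells. NTHL1, whose glycosylase removes oxidised pyrimidines, lies in a domain of 51.7 kb at chr16:1997718-2049451 together with NHERF2, ZNF598, TSC2 and NPW. SMARCA1 covered 68.4% and 86.6% of it in siOrc6 H2O2 and 67.5% and 69.4% in siOrc6 NT, against 14.3% and 16.5% in siGl3 H2O2 and 0% and 0% in siGl3 NT, a difference of 65.3 ± 5.88 points (limma adjusted p = 0.0146). The groups do not overlap.

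Of the 8 domains at genes of the actin and adhesion list, 6 rose in siOrc6 cells, a share near the 70.2% of all domains called higher, against which the counts for the other lists are also to be read. ACTG1 was covered at 83.0% and 88.9% in siOrc6 H2O2 and 66.8% and 36.2% in siOrc6 NT, against 16.9% and 24.95% in siGl3 H2O2 and 0% and 29.7% in siGl3 NT, a difference of 50.8 ± 9.88 points (limma adjusted p = 0.0258, and 0.0553 with the batch number as a term). PLEC and FLNA differed by 50.9 and 52.8 points and were called in either fit (limma adjusted p = 0.0171 and 0.0163, and 0.0481 and 0.0479 with the batch number). ACTB, LMNA and ACTN1 differed by 47.9, 50.7 and 34.9 points and were not called with the batch number (limma adjusted p = 0.0553, 0.056 and 0.0679). PXN and ACTN4 differed by 39.5 and 30.4 points and did not pass (limma adjusted p = 0.0702 and 0.0836).

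Both HOX domains rose, the HOXA domain by 61.9 ± 8.18 points (limma adjusted p = 0.0164) and the HOXB domain by 40.7 ± 5.32 points (0.0163). Of the 5 AP-1 and immediate early domains, 4 rose: MAFG by 66.8, MAFK by 61.9, FOSL1 by 47.5 and ZFP36 by 44.0 points, of which FOSL1 and ZFP36 were not called with the batch number (limma adjusted p = 0.0553 each). The MYC domain (chr8:127723034-127759649) was at 48.6% and 72.3% in siOrc6 H2O2 and 97.4% and 72.9% in siOrc6 NT, against 51.1% and 42.9% in siGl3 H2O2 and 43.8% and 56.0% in siGl3 NT. Its groups overlapped and it did not pass (24.3 ± 9.03 points, limma adjusted p = 0.0988). HMOX1, the haem oxygenase gene, and MCM5, a gene of the replicative helicase, share a domain that rose by 45.6 points (limma adjusted p = 0.0299, and 0.0554 with the batch number), while OSGIN1 and GPX2 differed by 28.6 and 30.3 points without passing. COL1A1 rose by 55.3 points (limma adjusted p = 0.017), and SMAD6, PHLDA3 and CHRAC1 differed by 30.1, 30.5 and 47.1 points without passing. Of the neuron and T cell genes, GRIN1, SLC17A7, RBFOX3 and CD4 lay in domains that rose by 53.1, 43.3, 27.9 and 47.3 points, of which SLC17A7 and RBFOX3 were not called with the batch number (limma adjusted p = 0.0504 and 0.0512).

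The difference varied along the genome. All 17 domains of the block at the end of chromosome 17 rose, with a median of 58 points, as did all 10 of the chromosome 22 block from SEPTIN5 to RANBP1 (median 62.5) and all 8 of the chromosome 7 block around the widest domain (median 63.9, chr7:1003578-1876561). Of the 8 domains at chr22:24755914-25238794, over PIWIL3, SGSM1, KIAA1671 and the crystallin genes CRYBB2 and CRYBB3, none was called (median 14.7 points), and of the 12 around ACTB on chromosome 7 only 4 were (median 30.5). By chromosome, the share called higher ran from 45.2% of the 42 domains of chromosome 8 to 92.3% of the 13 of chromosome 19 among chromosomes with 10 or more domains. The lowest differences were at FBXO32 (-6.72 points) on chromosome 8 and KIAA1671 (-4.15 points) on chromosome 22, and neither passed. Domains of a block lie side by side and are not independent of each other. The calls by block and chromosome come from the fit without the batch number. With it, 160 of all domains were called higher.

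A high SMARCA1 difference between siRNAs was not limited to wide OGG1 regions. Replicate 1 regions of any width that a replicate 2 region overlaps were grouped by width, and the mean SMARCA1 coverage of each class was averaged over the 4 siOrc6 and the 4 siGl3 lists. In the 177 regions of 50 kb or more it was 58.3% ± 11.6 in siOrc6 and 14.5% ± 6.90 in siGl3 lists (SD, n = 4 each), and in the 411 of 30 to 50 kb 50.9% ± 11.2 and 13.7% ± 5.16. The 20 to 30 kb class stood at 45.1% ± 10.8 in siOrc6 and 12.8% ± 4.71 in siGl3 lists, and the 5 to 10 kb class at 37.9% ± 8.73 and 14.2% ± 5.02. The 4136 regions under 5 kb had the highest coverage of all, 62.4% ± 6.39 in siOrc6 and 24.8% ± 10.9 in siGl3 lists. The difference thus was 43.8 points at 50 kb or more, 37.2 at 30 to 50 kb, 32.3 at 20 to 30 kb, 26.7 at 10 to 20 kb, 23.7 at 5 to 10 kb and 37.6 under 5 kb. From 5 kb upward siOrc6 coverage was higher in each wider class, while siGl3 coverage stayed between 12.8% and 14.5%. These class means carry no test.

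**Figure D5:**
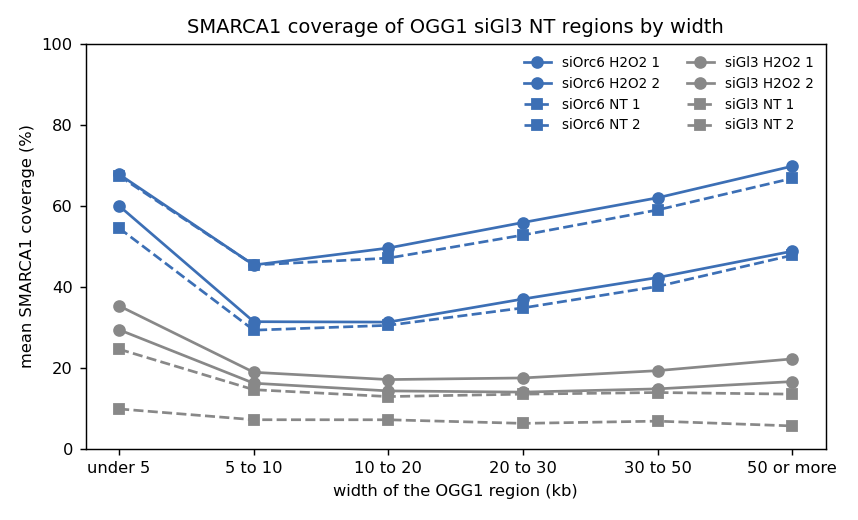
Mean SMARCA1 coverage (%) of OGG1 siGl3 NT replicate 1 regions by their width (kb), a line for each SMARCA1 list (blue siOrc6, grey siGl3, circles H2O2, squares NT). The 4 siOrc6 lists lie above the 4 siGl3 lists in each class, with means of 58.3% and 14.5% at 50 kb or more and of 62.4% and 24.8% under 5 kb.

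With H2O2, SMARCA1 coverage changed in few domains. limma called 11 domains (2.18%) higher and 2 (0.397%) lower over both siRNAs, against 10.8% and 0.935% of all features. The median difference was 6.75 points (4.10 over all features). FBRSL1 was at 71.0% and 68.0% in siOrc6 H2O2 against 0% and 21.97% in siOrc6 NT, and at 3.14% and 6.26% in siGl3 H2O2 against 0% and 0% in siGl3 NT, a difference of 31.6 ± 5.65 points (limma adjusted p = 0.0456). SLC17A9, the vesicular nucleotide transporter gene, was at 64.4% and 83.7% in siOrc6 H2O2 against 17.5% and 14.1% in siOrc6 NT, and at 0% and 5.95% in siGl3 H2O2 against 0% and 0% in siGl3 NT (30.6 ± 5.47 points, limma adjusted p = 0.0456). In both domains the siOrc6 lists hold most of the difference. A chromosome 16 domain with no protein-coding gene (chr16:1114251-1147873), ZNF469 with ZFPM1, and SBF1 with ADM2 and MIOX followed, at 25.9, 22.2 and 22.2 points. Lower were the keratin gene KRT80 and a chromosome 17 domain with no protein-coding gene (chr17:72328526-72364981). KRT80 was at 38.5% and 56.9% in siOrc6 H2O2 against 100% and 98.5% in siOrc6 NT, and at 6.41% and 14.1% in siGl3 H2O2 against 30.8% and 34.0% in siGl3 NT, so it fell in cells with either siRNA (-36.9 ± 6.29 points, limma adjusted p = 0.0456). With the batch number as a term no domain was called in either direction (40 higher and 6 lower at an unadjusted p under 0.05; adjusted p = 0.0838 for each of the 5 domains named as higher and for KRT80). Among lists cut to the same number of regions 2 (0.428%) were called higher and 44 (9.42%) lower, against 3.80% and 13.3% of all features. The difference of the H2O2 change between siOrc6 and siGl3 cells was called in 0 domains and 0% of all features (lowest limma adjusted p among domains 0.0924; 22 higher and 17 lower at an unadjusted p under 0.05).

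Over the 18 lists that did not choose them, 173 domains (34.3%) were touched by a region in every list of the series, and 2 were covered over at least 50% of their bases in all 20. The most covered was PMEPA1 (chr20:57687559-57722122), a TGF-beta-induced gene whose product limits TGF-beta signalling, at a mean of 89.0%. SMARCA1 covered 84.6% and 92.0% of it in siOrc6 H2O2 and 100% and 96.3% in siOrc6 NT, against 60.7% and 59.9% in siGl3 H2O2 and 63.7% and 77.0% in siGl3 NT. Orc6 covered 98.4% and 96.0% of it with H2O2 and 94.6% and 84.7% without. It was followed by the long non-coding RNA gene LINC00673 (84.7%), UACA (84.0%), NBPF1 (82.1%), which has near-identical copies on chromosome 1 that could share reads, and LOC124904930 (82.0%). Least covered was the domain over TH and INS (chr11:2153626-2187436), the genes of tyrosine hydroxylase and insulin, at 22.3%. OGG1 covered 16.7% and 85.2% of it in siOrc6 H2O2, 91.3% and 0% in siOrc6 NT and 28.6% and 87.5% in siGl3 H2O2, so the replicates of each group lay far apart. SMARCA1 covered 24.7% and 56.2% of it in siOrc6 H2O2 and none in the other 6 lists, and Orc6 10.7% in a single NT list. MEGF6, the X-linked IDH3G domain and CASZ1 were also among the least covered, at 24.3% to 26.6%.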

How the data were processed

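Region lists from CUT&RUN on U2OS cells were used, 20 libraries in 10 groups of 2, with groups and replicate numbers from the sample titles. Judging by the labels and file layout, every deposited list gives 1 library's called regions, each with a total and a maximum signal set by the authors. SEACR 1.1, DiffBind, DESeq2, Bowtie2, deepTools, SAMtools and bedtools, and the build hg38, appear in the submitters' processing notes with no role stated. Neither the normalization nor the control behind the signal was given in the sources used here. The signal was read only to rank regions within a list, and depth is unknown.

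The domains and gene lists were chosen with earlier results of these data known. Coverage is the percent of a feature's bases inside called regions. Features were the 504 domains and the 30 kb windows of chromosomes 1 to 22 and X that touch none (99703). limma 3.58.1 (R 4.3.3; variance trend, robust prior) was fitted over all features with at least 5% coverage in at least 2 libraries fitted, and p-values were adjusted by Benjamini-Hochberg over them, with a threshold of 0.05. OGG1 fits left out the siGl3 NT lists. All 504 domains passed the filter except for Orc6, where 482 did. The labels give a batch equal to the replicate number in 20 of 20 libraries, so the numbers may pair the samples. What a batch shares is not stated, and the main fits held no batch term. Over the domains, the differences between replicates correlated at -0.66 to 0.56 between groups of an antibody. Whether replicates are separate cultures is not stated, so p-values measure the spread between these samples. No 2 lists held the same regions.

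Named domains were the 10 widest, the 5 nearest either side of the width threshold, the 5 most and least covered over the 18 other lists, the 5 of largest difference among those called in each comparison and direction, and those at listed genes. Other domains named (RBM38, FBXO32, KIAA1671, the blocks) were chosen after their values were seen. Some items that this rule names are not reported here. Gene positions and promoters came from RefSeq tables (GRCh38.p14) with no exons or gene models, so exonic or intronic position is not given. The fit was tested on simulated data. Alternatives covered the window size, the filter, list length, covered bases, signal rank, width, batch number, replicates left out and Fisher's exact test. Python 3.11.15, numpy 2.4.6 and pandas 2.3.3 were used.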

Additional observations from a re-analysis of the deposited data

How the results depend on the processing

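Of the domain counts, those of the OGG1 comparison between siRNAs and of Orc6 with H2O2 were 0 in each direction under each alternative run. SMARCA1 was higher in siOrc6 cells in 70.2% of the domains, but in 38.7% with no filter on low coverage, 48.4% of the 436 fitted among lists of equal covered bases, 31.7% with the replicate block and 0% by Fisher's exact test of domains covered over 50% (107 domains at an unadjusted p under 0.05), and in 0% to 79.6% with a replicate left out. SMARCA1 was higher in 700 of the 1129 domains of at least 20 kb fitted (62%, against 17.1% of all features). Of the 136 of at least 50 kb, 108 were higher (79.4%, against 17.6%). The 0 domains that were lower became 1 in the upper part of each list by signal, 3 at equal list length and 8 at equal covered bases. As shares these were 0.203%, 0.642% and 1.83%, against 7.64%, 10.8% and 23.5% of all features. SMARCA1 domains higher with H2O2 numbered 11 (2.18%, against 10.8% of all features). In each setting that called any, replicates left out included, the domain share lay below that of all features in both directions. Those higher numbered 19 (3.85% against 26.6%) in the upper part of each list by signal and 2 (0.428% against 3.80%) at equal list length. They numbered 28 (6.42% against 12.5%) at equal covered bases and 4 (0.794% against 1.16%) without variance trend. At 20 kb they were 42 (3.72% against 11.4%) and at 50 kb 1 (0.735% against 10.3%). None of the domains or features was called with windows of 100 kb, no filter, the replicate block or Fisher's exact test. Those lower (2) numbered 4, 44, 28, 1, 9 and 0 under the same settings in that order, and again 0 under the last 4. With a replicate left out they ran from 0 to 31 higher and from 0 to 1 lower. Without SMARCA1 siOrc6 H2O2 replicate 1 the 31 were reached, and without 6 of the other 7 libraries, none were. OGG1 domains higher with H2O2 in siOrc6 cells (0) numbered 1 without variance trend and 0 to 273 with a replicate left out. The rule gave 1138 domains at 20 kb and 136 at 50 kb, 482 when at least 50% of the replicate 1 region had to overlap, and 485 from the replicate 2 list. For the domains named by their difference, 82 alternative values kept the call and 121 lost it, with no change of direction. The causes were not tested. A list cut by signal need not hold the same widths, and depth is unknown.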

Other observations

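The 54 domains with no protein-coding gene form a group of their own. Of them, 41 overlap a long non-coding RNA, miRNA, pseudogene or other annotated gene, and 13 hold no annotated gene of any type. SMARCA1 was higher in siOrc6 than in siGl3 cells in 27 of the 54 by limma, where 70.2% of all domains and 17.2% of all features were. Whether the domains without protein-coding genes differ from the others was not tested. The calls given here come from the fit without the batch number as a term. The widest, of 109.7 kb at chr22:25342011-25451725, spans LRP5L and the crystallin pseudogene CRYBB2P1 and rose by 40.2 points (limma adjusted p = 0.0293). A domain of 84.4 kb on chromosome 20 over the genes of the muscle microRNAs miR-1-1 and miR-133a-2 rose by 46.8 points (limma adjusted p = 0.0181). Neighbouring domains of 39.4 and 69.0 kb lie over PVT1, downstream of MYC on chromosome 8, and differed by 7.55 and 28.3 points without passing (limma adjusted p = 0.525 and 0.135). LINC00673 on chromosome 17 was covered at 50.2% and 72.5% by SMARCA1 in siOrc6 H2O2 and 100% and 87.8% in siOrc6 NT, against 59.7% and 52.8% in siGl3 H2O2 and 71.6% and 90.9% in siGl3 NT. Its siOrc6 and siGl3 lists overlap (difference 8.90 points, limma adjusted p = 0.467). A domain at chr14:64621082-64671226 with no annotated gene had a mean coverage of 79.3% over the 18 lists that did not choose the domains. The 2 domains at LINC00673 and PMEPA1 are those covered over at least 50% in all 20 lists. By biotype, 4.65% of protein-coding genes, 5.02% of miRNA genes, 2.39% of long non-coding RNA genes and 0.486% of pseudogenes overlapped a domain. These domains were described after their values were seen.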
